A study of Mus musculus with 15 samples.

Results

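Cells carry a standing defence against oxidants, and much of it is set by the transcription factor NRF2. The protein, encoded by Nfe2l2, is held at a low level by KEAP1, which hands it to a ubiquitin ligase, and when KEAP1 is modified by electrophiles NRF2 collects in the nucleus, pairs with a small MAF protein and binds antioxidant response elements near its target genes. The pigment epithelium lies against the photoreceptors under strong light and high oxygen, and takes up their lipid-rich outer segment tips, so its antioxidant enzymes have been studied for many years. Expression of 10 such genes, Nqo1, Hmox1, Gclc, Gclm, Srxn1, Txnrd1, Slc7a11, Sod1, Sod2 and Cat, was examined in mouse posterior eyecups carrying none, 1 or both copies of the FUN025 mutation of Tmem135, a gene tied to mitochondrial size and retinal ageing. They were taken by name, and each matched 1 Ensembl identifier among the 55421 genes counted.

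RNA was sequenced from posterior eyecups without the neural retina, which keep the pigment epithelium, choroid and sclera. There were 4 WT, 6 FUN025/+ and 5 FUN025/FUN025 mice, all 2.5 months old, of both sexes and on the C57BL/6J background, with 1 library per mouse, and no other allele or treatment is named. Mice of both mutant genotypes carry the mutation in every cell. The labels describe eyecups pooled from individual mice and name no batch, and the sex of each mouse was not used for grouping. The paper's supplement lists as many males as females in WT, more males in FUN025/+ and more females in FUN025/FUN025 mice.

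Total counts were 18094977 to 20029919 in WT, 10903183 to 13456349 in FUN025/+ and 11053535 to 15038383 in FUN025/FUN025 libraries, so every WT library was deeper than every mutant one, and depth and genotype cannot be told apart in comparisons with WT. Tmem135 transcripts were higher than in WT by 0.23 on the log2 scale in FUN025/+ (adjusted p = 0.0248) and by 0.47 in FUN025/FUN025 eyecups (adjusted p = 1.48e-04), in edgeR's quasi-likelihood test, but a higher level of a mutated transcript does not check the labels. All 8 pigment epithelium markers (Rpe65, Best1 and others) were detected, at a summed 17100 to 22200 CPM (counts-per-million units) over the 15 mice. Of the 8, 0 were called in any comparison. Over all genes 13.7% and 14% were called in FUN025/+ and FUN025/FUN025 against WT, and 0.522% between the mutants. RNA of other tissues was present as well. The summed level of 10 rod markers was 353 to 2510 CPM in WT, 186 to 780 in FUN025/+ and 184 to 512 in FUN025/FUN025 eyecups, and that of 10 skeletal muscle markers was 5390 to 10200, 2830 to 7450 and 4390 to 5420 CPM. No marker of either list was at 0 in every mouse of a genotype. In bulk tissue, fewer cells of a type and less RNA per cell cannot be told apart.

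NRF2 reaches its targets through a short sequence, and the starts of the members show how unevenly it is spread within them. The windows running from 250 bases before to 50 bases after each RefSeq start (GRCm38.p6) were searched on both strands for TGACNNNGC and TGAGNNNGC, 2 forms of the core of the antioxidant response element that cannot match the same bases on a strand. Of the 10 members, 8 had an entry, and 5 of these (62.5%) held a match to either form, beside 30.8% of 27025 genes. One form, TGACNNNGC, was found in 14% of genes and the other in 19.8%. The 3 windows below are shown because Nqo1 was the only member with a called difference, Srxn1 had the most matches, and Txnrd1 has several RefSeq starts, of which the one shown had a match. Each is written 5′ to 3′ along the gene, with matches on either strand in capitals.
Nqo1, chr8:107403156-107403455, minus strand: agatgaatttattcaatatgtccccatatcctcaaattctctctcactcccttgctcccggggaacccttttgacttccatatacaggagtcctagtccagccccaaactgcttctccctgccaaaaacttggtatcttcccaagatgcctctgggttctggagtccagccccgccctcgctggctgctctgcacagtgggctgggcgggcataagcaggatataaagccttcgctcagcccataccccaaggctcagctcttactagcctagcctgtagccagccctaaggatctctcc
Srxn1, chr2:152105274-152105573, plus strand: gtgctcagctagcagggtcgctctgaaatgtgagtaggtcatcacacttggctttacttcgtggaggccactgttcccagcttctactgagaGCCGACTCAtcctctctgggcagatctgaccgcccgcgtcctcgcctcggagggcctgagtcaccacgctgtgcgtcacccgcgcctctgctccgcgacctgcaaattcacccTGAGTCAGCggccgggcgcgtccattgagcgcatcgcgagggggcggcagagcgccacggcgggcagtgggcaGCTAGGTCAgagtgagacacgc
Txnrd1, chr10:82858956-82859255, plus strand: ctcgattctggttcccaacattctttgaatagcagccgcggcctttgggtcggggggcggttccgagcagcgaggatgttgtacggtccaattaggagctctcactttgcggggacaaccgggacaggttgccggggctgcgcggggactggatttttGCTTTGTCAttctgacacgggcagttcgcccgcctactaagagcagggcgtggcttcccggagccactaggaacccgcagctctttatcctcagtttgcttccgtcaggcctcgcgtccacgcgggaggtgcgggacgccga

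The Srxn1 window held 3 matches, TGAGTCGGC on the minus strand, TGAGTCAGC on the plus strand 37 to 45 bases before the start, and TGACCTAGC on the minus strand after the start. The match in Txnrd1 was TGACAAAGC, 84 to 92 bases before the start. Single matches were also found for Gclm (TGACGGTGC), Slc7a11 (TGAGAAAGC) and Sod1 (TGACCACGC), and 0 for Nqo1, Sod2 and Cat. A match is a run of letters and not a shown binding site, and elements farther from the start lie outside these windows.

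All members were well above the counting floor of 3 reads, with 239 counts of Hmox1 in a FUN025/+ mouse as the lowest of the 150 values. Levels were compared between genes only after division by exon length, as TPM (transcripts-per-million units). Cat, encoding the peroxisomal enzyme that splits hydrogen peroxide, stood first at 362 ± 30.6 TPM (SD, n = 15 mice). Sod1, the cytosolic copper-zinc superoxide dismutase, followed at 163 ± 10.9 TPM, and Nqo1, which encodes a quinone reductase, at 144 ± 20.6 TPM. Sod1 was above Nqo1 in 11 of 15 mice, and the exceptions were all FUN025/+ mice (1, 3, 4 and 6). The means of Sod1 and Nqo1 were 172 and 149 TPM in WT, 158 and 160 in FUN025/+ and 160 and 122 TPM in FUN025/FUN025 eyecups, so the order of this pair was not the same in every genotype, while Cat was above Sod1 and Nqo1 above Gclc in 15 of 15. Gclc and Gclm, the catalytic and modifier subunits of the enzyme that begins glutathione synthesis, had 69.5 ± 7.59 and 43.0 ± 2.60 TPM. Txnrd1, cytosolic thioredoxin reductase, lay between them at 47.5 ± 3.08 TPM. After Gclm came Hmox1 (41.2 ± 4.43 TPM), Sod2 (40.1 ± 2.26 TPM) and Srxn1 (39.2 ± 2.64 TPM), and these neighbours were not separated, since Gclm was above Hmox1 in 10, Hmox1 above Sod2 in 7 and Sod2 above Srxn1 in 9 of 15 mice. Slc7a11, the cystine transporter, was the lowest in all 15 mice at 9.28 ± 2.30 TPM.

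Variation between mice of a genotype was small for 9 of the 10. Their pooled SDs of log2 CPM ran from 0.0801 for Txnrd1 to 0.151 for Gclc, under the median of 0.159 over the 18979 genes tested. Slc7a11, with 0.322, was the exception.

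**Figure D1:**
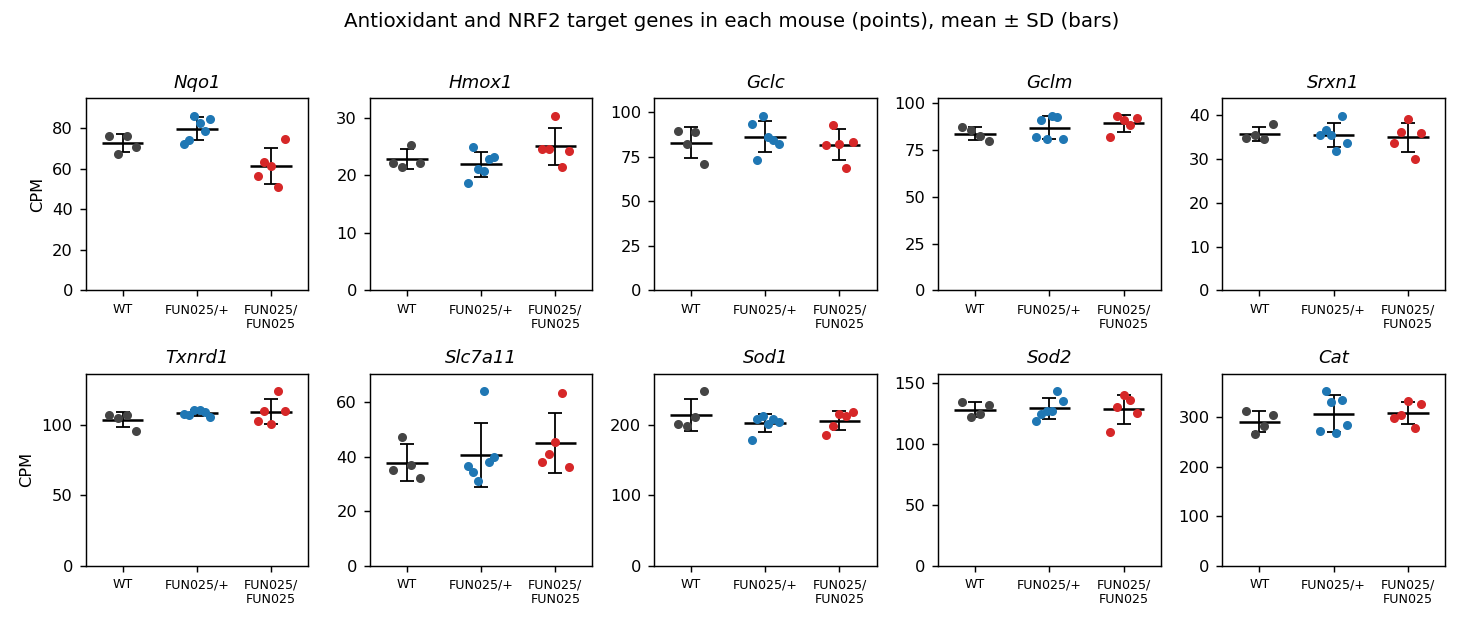
CPM (vertical axes, from 0) of each of the 10 genes in each mouse (points) by genotype, with the mean (long line) and SD (capped bar) over 4 WT, 6 FUN025/+ and 5 FUN025/FUN025 mice. Points of the genotypes overlapped for every gene, the lowest Nqo1 values were in FUN025/FUN025 mice, and 1 mouse of each mutant genotype stood high for Slc7a11.

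Heterozygous mice were compared with WT first, which asks whether 1 mutant copy alters the antioxidant genes. None of the members passed the test. In edgeR's quasi-likelihood test 0 of 10 were called at an adjusted p under 0.05, where 13.7% of all 18979 genes tested were called, and 0 had an unadjusted p under 0.05, beside 28.8% of all genes; DESeq2 and limma-voom also called 0. CPM values of the groups overlapped for 10 of 10 members, while they were apart for 10.9% of all genes. Log2 fold changes ran from -0.085 for Sod1 to 0.14 for Nqo1, with a median of 0.054 beside -0.002 over all genes.

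Leaving Slc7a11 aside, the 95% intervals of the members lay between -0.25 and 0.31 on the log2 scale. For Slc7a11 the interval was -0.35 to 0.55.

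FUN025/FUN025 mice were then set against WT. Again 0 of 10 members were called by edgeR, DESeq2 or limma-voom, beside 14% of all genes by edgeR, and 1 of 10 had an unadjusted p under 0.05, beside 28.6% of all genes. This was Nqo1, lower by a log2 fold change of -0.24 (95% interval -0.42 to -0.066, edgeR adjusted p = 0.0627). Its adjusted p was just over the threshold by DESeq2 (0.0511) and limma-voom (0.0512). The groups overlapped for every member, while 14.8% of all genes had groups that were apart. The other members lay between -0.057 for Sod1 and 0.25 for Slc7a11, with intervals from -0.21 to 0.33 when Slc7a11, at -0.22 to 0.71, is left aside. The median over the 10 was 0.042, beside -0.007 over all genes. Both comparisons with WT share the same 4 control mice.

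The third comparison, between the mutant genotypes, had libraries of like depth. It called few genes anywhere, 0.522% of those tested, and 1.12% had groups that did not overlap. Of the members, 1 of 10 was called and 0 of 10 had groups that were apart. The called gene was Nqo1, lower in FUN025/FUN025 eyecups.

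Nqo1 (ENSMUSG00000003849, chr8:107388225-107403206, minus strand, GRCm38) encodes NAD(P)H quinone dehydrogenase, which spares cells the redox cycling of quinones and is among the most used readouts of NRF2. It was at 76.2, 67.4, 76.2 and 71.0 CPM in WT mice 1 to 4. In the 6 FUN025/+ mice it ran from 72.3 to 86.1 CPM with a median of 80.7. In FUN025/FUN025 mice 1 to 5 it was at 56.5, 63.4, 61.6, 50.9 and 74.7 CPM. Only mouse 5 of the last group reached into the range of the FUN025/+ mice, and the other 4 were below every mouse of both other genotypes. The means were 72.7 ± 4.32 (SD, n = 4), 79.8 ± 5.64 (n = 6) and 61.4 ± 8.88 CPM (n = 5).

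The log2 fold change of Nqo1 between FUN025/FUN025 and FUN025/+ mice was -0.38 ± 0.078 (SE; 95% interval -0.54 to -0.22; edgeR adjusted p = 0.029), so the level fell by 23.1%. The direction held in all 27 alternatives run, over which the adjusted p ran from 0.00124 to 0.121, and the call was lost in 11 of them. It was lost, for example, when only these 2 genotypes were fitted (log2 fold change -0.38, adjusted p = 0.0735) and after thinning to one depth (-0.36, adjusted p = 0.0724). Leaving out FUN025/+ mouse 3, 4, 5 or 6 gave adjusted p values of 0.0873, 0.069, 0.0603 and 0.0749, and leaving out FUN025/FUN025 mouse 1, 2, 3 or 4 gave 0.121, 0.069, 0.0887 and 0.0814. Without FUN025/FUN025 mouse 5 the log2 fold change was -0.46 (adjusted p = 0.00202), and the difference from WT was then called as well, at -0.32 (adjusted p = 0.00961). Without FUN025/FUN025 mouse 4 it was -0.31 between the mutants, and -0.18 against WT (adjusted p = 0.151). With rod and muscle marker levels in the fit the log2 fold change between the mutant genotypes was -0.39 (adjusted p = 0.0343). With an Xist covariate, entered for the sex of the mice, it was -0.4 (adjusted p = 0.00304). In the same comparison the 8 pigment epithelium markers had a median of -0.18 on the log2 scale and the 8 endothelial markers -0.21, with 0 called in either list, and their part in the result was not tested.

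**Figure D2:**
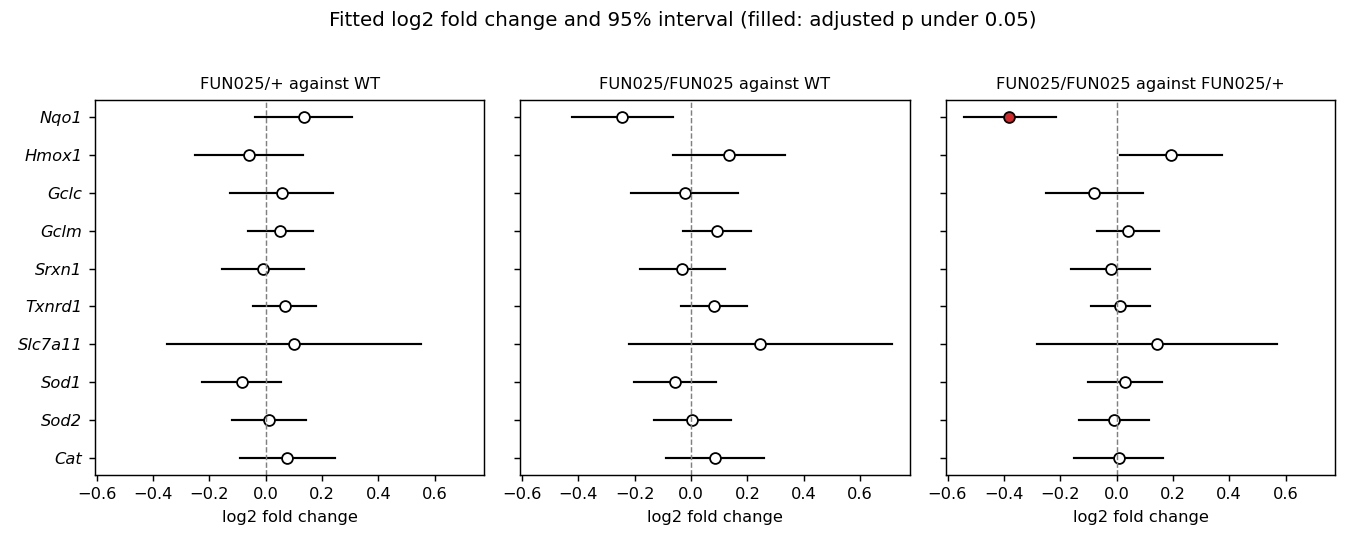
Fitted log2 fold change (points) and 95% interval (lines) of the 10 genes in the 3 comparisons, with calls at an adjusted p under 0.05 filled. Only Nqo1 between FUN025/FUN025 and FUN025/+ was filled, at -0.38, and Slc7a11 had the widest intervals.

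Hmox1 (chr8:75093621-75100589, plus strand), heme oxygenase 1, breaks down heme and answers to NRF2 and to the repressor BACH1. It was at 22.1, 21.5, 25.3 and 22.2 CPM in WT mice, 18.7 to 24.9 with a median of 21.9 in FUN025/+ mice, and 24.5, 24.6, 30.3, 21.5 and 24.2 CPM in FUN025/FUN025 mice. The 30.3 CPM of FUN025/FUN025 mouse 3 was the highest of all 15, and the groups overlapped. Between the mutant genotypes the log2 fold change was 0.19 (95% interval 0.012 to 0.38) with an unadjusted p of 0.0377, which did not pass the adjustment over all genes (edgeR adjusted p = 0.747). Without mouse 3 it was 0.12 (adjusted p = 1). The number of members with an unadjusted p under 0.05 in this comparison was 2 of 10, Nqo1 and Hmox1, beside 6.23% of all genes, and it was 1 without that mouse, without FUN025/+ mouse 1 or 3, and with muscle and rod covariates.

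Glutathione synthesis begins with the import of cystine, and Slc7a11 (chr3:49892526-50443614, minus strand), the light chain of that transporter, was the most variable member. WT mice had 35.0, 47.4, 37.1 and 32.1 CPM. Among FUN025/+ mice the values were 31 to 64.1 with a median of 37.3, and FUN025/FUN025 mice had 38.2, 41.2, 45.5, 63.6 and 36.3 CPM. Mouse 4 of each mutant genotype was thus far above its group, and the remaining 13 mice lay between 31 and 47.4 CPM. Log2 fold changes were 0.10 in FUN025/+ against WT, 0.25 in FUN025/FUN025 against WT and 0.15 between the mutants, with adjusted p values of 0.791, 0.495 and 1. These values turned on single mice. Without FUN025/+ mouse 4 they were -0.07, 0.25 and 0.33, without FUN025/FUN025 mouse 4 they were 0.10, 0.09 and -0.01, and without WT mouse 2 they were 0.23, 0.38 and 0.15. Among its 31-base stretches, 4.27% also occur in other genes.

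The subunits of glutamate-cysteine ligase, Gclc (chr9:77754535-77794485, plus strand) and Gclm (chr3:122245557-122270732, plus strand), had small values that were not called. Gclc was at 89.7, 82.1, 89.0 and 71.1 CPM in WT mice, 73.3 to 97.9 with a median of 85.4 in FUN025/+, and 81.8, 92.8, 82.2, 68.7 and 83.0 CPM in FUN025/FUN025 mice, with log2 fold changes of 0.057 and -0.022 against WT. Gclm was at 87.1, 85.7, 82.3 and 79.7 CPM in WT, 80.8 to 93.2 with a median of 86.5 in FUN025/+, and 81.9, 93.0, 91.2, 88.3 and 91.9 CPM in FUN025/FUN025 mice. Its log2 fold changes against WT were 0.052 and 0.092, with SEs of 0.055 and 0.057. The genotypes overlapped for both subunits, for Gclm between FUN025/FUN025 and WT through mouse 1 alone, at 81.9 CPM, while the other 4 were above every WT mouse. With muscle and rod covariates the Gclm values against WT were 0.19 and 0.22 (adjusted p = 0.363 and 0.213). Part of Gclm, 4.71% of its exon length, overlaps other annotated genes.

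In the thioredoxin branch, Txnrd1 (chr10:82833951-82897712, plus strand) recharges thioredoxin with electrons from NADPH, and Srxn1 (chr2:152105516-152111376, plus strand) restores overoxidised peroxiredoxins. Txnrd1 was the steadiest member. It was at 107, 105, 107 and 95.7 CPM in WT, 106 to 111 with a median of 108 in FUN025/+, and 103, 110, 101, 124 and 110 CPM in FUN025/FUN025 mice. Its log2 fold changes of 0.067 and 0.081 against WT had intervals from -0.044 to 0.18 and from -0.035 to 0.20. Srxn1 was at 34.9, 35.6, 34.6 and 38 CPM in WT, 31.9 to 39.9 with a median of 35.5 in FUN025/+, and 33.6, 36.2, 39.1, 30.1 and 36.1 CPM in FUN025/FUN025 mice. The group means of Srxn1 were 35.8, 35.5 and 35.0 CPM, closer to each other than the SDs of 1.53 to 3.38 CPM.

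The enzymes that remove superoxide and hydrogen peroxide are expressed in most cells and only partly governed by NRF2. Sod1 (chr16:90220754-90226329, plus strand) was at 201, 199, 211 and 248 CPM in WT, 178 to 213 with a median of 206 in FUN025/+, and 186, 198, 216, 213 and 219 CPM in FUN025/FUN025 mice. WT mouse 4 was the highest and FUN025/+ mouse 1 the lowest. For Sod2 (chr17:13006846-13040063, plus strand), the manganese enzyme of mitochondria, the WT values were 134, 122, 124 and 132 CPM, the FUN025/+ values 119 to 143 with a median of 127, and the FUN025/FUN025 values 110, 130, 140, 136 and 125 CPM. Its log2 fold changes were 0.012, 0.004 and -0.008, and with muscle and rod covariates those against WT were 0.28 and 0.23 (adjusted p = 0.119 and 0.124). It had 26.7% of its 31-base stretches in other genes, so some of its reads could have been dropped or shared. Cat (chr2:103453849-103485160, minus strand) was at 312, 265, 281 and 305 CPM in WT, 268 to 352 with a median of 307 in FUN025/+, and 299, 305, 333, 278 and 327 CPM in FUN025/FUN025 mice, and its log2 fold changes against WT were 0.077 and 0.085.

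Next, the members were compared with each other within genotypes, over the deviation of each mouse from the mean log2 CPM of its genotype. Of 45 pairs, 0 passed the adjustment for 45 tests by Pearson's r and 0 by Spearman's rho (two-sided permutation within genotypes, 100000 resamples), and 6 and 2 had an unadjusted p under 0.05. The median r was 0.17, with 29 positive and 16 negative pairs. The steepest were Srxn1 with Cat and Slc7a11 with Cat. Srxn1 and Cat had r = 0.70 and rho = 0.70 (permutation p = 0.00424 and 0.00595, adjusted 0.126 and 0.268, n = 15), and r = 0.62 without the 2 mice farthest from the median of Srxn1. Slc7a11 and Cat had r = -0.68 and rho = -0.54 (permutation p = 0.00559 and 0.0599, adjusted 0.126 and 0.558, n = 15), and r = -0.47 without the 2 mice farthest from the median of Slc7a11. Other pairs among Srxn1, Cat, Slc7a11 and Txnrd1 were also taken with 2 mice left out in the same way. Srxn1 and Txnrd1 went from -0.65 to -0.45, and Srxn1 and Slc7a11 from -0.59 to -0.46. Txnrd1 and Cat went from -0.34 to -0.01, so this pair rested on those mice. The positive pair Txnrd1 and Slc7a11 went from 0.48 to -0.05. Pairs with other members were negative too, such as Hmox1 and Txnrd1 (-0.50 to -0.31) and Nqo1 and Slc7a11 (-0.37 to 0.05). All values of a mouse come from 1 library and share its depth and tissue make-up.

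**Figure D3:**
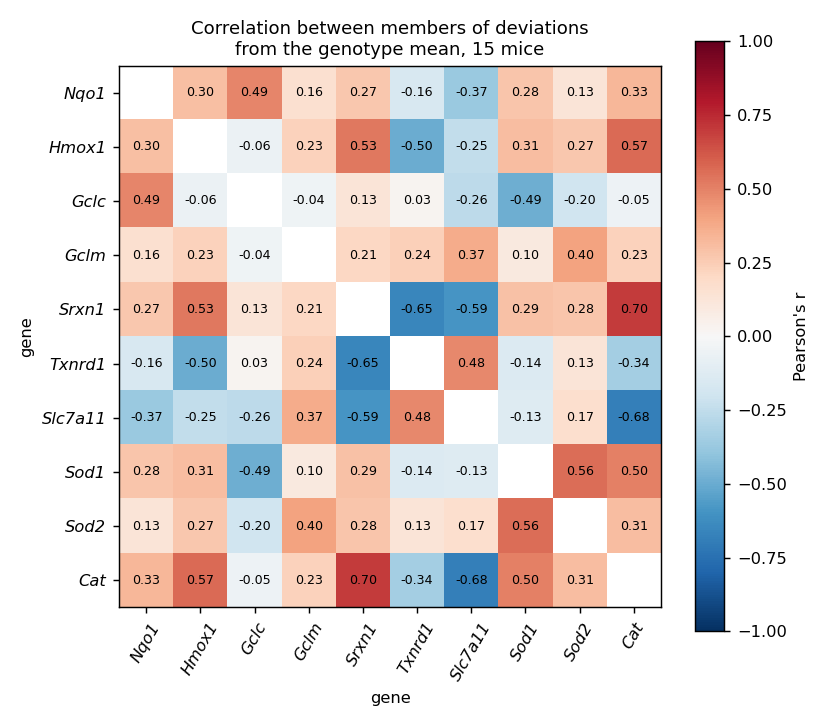
Pearson's r between members (both axes) of deviations from the genotype mean of log2 CPM over 15 mice, coloured from -1 to 1. Slc7a11 and Txnrd1 had r of -0.34 to -0.68 with Srxn1 and Cat, or -0.01 to -0.47 without the 2 mice farthest from the median of 1 gene of the pair, and no pair passed the adjustment for 45 tests.

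The 2 mice that stood high for Slc7a11 were also at the edge for other members, which was noted after the values were seen. FUN025/FUN025 mouse 4 had the lowest Nqo1, Gclc, Srxn1, Hmox1 and Cat of its genotype and the highest Txnrd1. FUN025/+ mouse 4 had the lowest Srxn1 and Cat of its genotype. Their summed pigment epithelium markers were 17100 and 17800 CPM. WT mouse 2, FUN025/+ mouse 1 and FUN025/FUN025 mouse 1 were at 17500, 17100 and 17700 CPM, with Slc7a11 at 47.4, 36.6 and 38.2 CPM. WT mouse 2 had the lowest marker sum and the highest Slc7a11 of the WT mice. The part of pigment epithelium content in these values was not tested. A count of members without FUN025/FUN025 mouse 4 gave 0 calls in each of the 3 comparisons.

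To see the members within their pathway, 89 further genes in 7 lists were followed, of which 88 were tested and Gpx2 was not. Between FUN025/+ and WT 8 of 88 (9.09%) were called, 6 higher and 2 lower. Between FUN025/FUN025 and WT 6 of 88 (6.82%) were called, 5 higher and 1 lower. Both shares were below the 13.7% and 14% of all genes. Between the mutant genotypes 2 of 88 (2.27%) were called, 1 in each direction, beside 0.522% of all genes.

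Regulators of NRF2 formed 1 list of 12 genes. Nfe2l2 itself had group means of 92.9 ± 8.24 CPM in WT, 86.3 ± 2.71 in FUN025/+ and 85.8 ± 3.44 in FUN025/FUN025 eyecups, with log2 fold changes of -0.11 against WT in both (adjusted p = 0.191 and 0.178). Without WT mouse 2 both were -0.16 and called (adjusted p = 0.0412 and 0.0397). For Keap1 they were -0.092 and -0.058, and for Bach1, which competes with NRF2 for its sites, 0.052 and 0.090, none of them called. Of the 12 genes of this list 2 (16.7%) were called in FUN025/+ and 1 (8.33%) in FUN025/FUN025 mice against WT. Over all genes the shares were 13.7% and 14%. Btrc, a substrate adaptor that marks NRF2 and many other proteins for degradation, rose from 50.3 ± 4.16 CPM in WT to 62.4 ± 2.04 in FUN025/+ and 59.5 ± 2.32 in FUN025/FUN025 eyecups, and the WT mice, at 44.7 to 54.6 CPM, were below every mutant. Its log2 fold changes were 0.31 (adjusted p = 8.03e-04) and 0.24 (adjusted p = 0.00678). Mafg, a small MAF partner of NRF2, fell by 0.25 on the log2 scale in FUN025/+ mice (adjusted p = 0.00912), and this call was lost without WT mouse 4 (adjusted p = 0.052). In FUN025/FUN025 mice the Mafg value was -0.18 (adjusted p = 0.0505), which was called in 8 of 27 alternatives, and the mutants differed by 0.064 (adjusted p = 1).

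NADPH pays for glutathione and thioredoxin recycling and for the NQO1 reaction. In that list Idh1, cytosolic isocitrate dehydrogenase, was apart in all 3 genotypes, with 74.5 to 78.6 CPM in WT, 86.7 to 93.6 in FUN025/+ and 104 to 114 CPM in FUN025/FUN025 mice. It rose by 0.25 with 1 mutant copy and by 0.50 with both (adjusted p = 5.18e-04 and 3.67e-07), and the mutants differed by 0.25 (adjusted p = 0.00161). Pgd, an NADPH-making enzyme of the pentose phosphate pathway, rose by 0.16 in FUN025/FUN025 against WT (adjusted p = 0.0429), from 94.2 ± 5.33 to 105 ± 5.08 CPM. The Pgd call was lost in 11 of 27 alternatives, 6 of them without WT mouse 1 or 2, FUN025/+ mouse 2, or FUN025/FUN025 mouse 1, 3 or 5 (adjusted p = 0.0943, 0.109, 0.0518, 0.0668, 0.0682 and 0.105).

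Among 26 glutathione genes tested, 3 were called in FUN025/+ and 2 in FUN025/FUN025 mice against WT, and 1 between the mutants. These were 11.5%, 7.69% and 3.85%, beside 13.7%, 14% and 0.522% of all genes. The transferase Gstt1 rose in both (0.22 and 0.28, adjusted p = 0.0341 and 0.0111). Gstp1 rose by 0.24 in FUN025/+ (adjusted p = 0.0379), though it has close copies in the genome that can share its reads. Slc3a2, the heavy chain that partners SLC7A11 and several other transporter chains, fell by 0.21 in FUN025/+ (adjusted p = 0.0372), while Slc7a11 was not called. In FUN025/+ against WT the calls of Gstp1, Gstt1 and Slc3a2 were lost in 10, 8 and 7 of 27 alternatives. Without WT mouse 2 their adjusted p values were 0.0959, 0.103 and 0.129, without WT mouse 3 0.0834, 0.0668 and 0.0639, and without FUN025/+ mouse 3 0.0776, 0.0574 and 0.0802. Calls were also lost without WT mouse 4 (Gstp1 0.0661, Slc3a2 0.127), FUN025/+ mouse 1 (Gstp1 0.0658, Slc3a2 0.0665), mouse 2 (Gstp1 0.0623, Gstt1 0.0553), mouse 4 (Gstp1 0.0624, Gstt1 0.0589) and mouse 5 (Gstt1 0.0536, Slc3a2 0.0693).

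The gamma-glutamyl transferases, which take apart glutathione outside the cell, were lower in FUN025/FUN025 mice, Ggt5 against WT and Ggt1 against FUN025/+. Ggt5 was at 8.72 to 13.0 CPM in WT and 5.85 to 8.08 in FUN025/FUN025 mice, a log2 fold change of -0.58 (adjusted p = 0.0117), or -0.44 (adjusted p = 0.0613) without WT mouse 4. Ggt1 was at 48.1 to 63.9 CPM in FUN025/+ and 35.5 to 47.6 in FUN025/FUN025 mice, a log2 fold change of -0.40 (adjusted p = 0.017). The Ggt1 groups were apart only by the small step from 47.6 to 48.1 CPM, and its adjusted p was 0.0576 without FUN025/+ mouse 3 and 0.0584 without FUN025/FUN025 mouse 2.

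Of the remaining lists, thioredoxin and peroxiredoxin genes had 1 call of 14 (7.14%) in each comparison with WT, beside 13.7% and 14% of all genes. The called gene was Sesn3, a sestrin, at 0.30 and 0.29 (adjusted p = 0.00803 and 0.0116). Akr1b3, aldose reductase, was the 1 called gene of 13 other NRF2 targets, at 0.26 in FUN025/+ mice (adjusted p = 0.0167), or 0.23 (adjusted p = 0.0545) without WT mouse 2. Heme and iron genes had 0 calls of 9 and superoxide and peroxide genes 0 of 7 in any comparison by edgeR, DESeq2 or limma-voom. Some alternatives called single genes of the 2 lists. In FUN025/+ against WT they were Pir without WT mouse 3, Tfrc without FUN025/+ mouse 1 and Sod3 without FUN025/+ mouse 4. In FUN025/FUN025 against WT they were Msrb1 with replicate numbers as a block, and Romo1 after thinning to one depth or without FUN025/FUN025 mouse 4. At an unadjusted p under 0.05 in the main fit the heme and iron genes numbered 2, 1 and 0 and the superoxide and peroxide genes 0, 2 and 0. The order is that of the comparisons above, beside 28.8%, 28.6% and 6.23% of all genes. The superoxide and peroxide genes, Sod3 and Park7 among them, had median log2 fold changes of -0.055, -0.086 and -0.035.

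**Figure D4:**
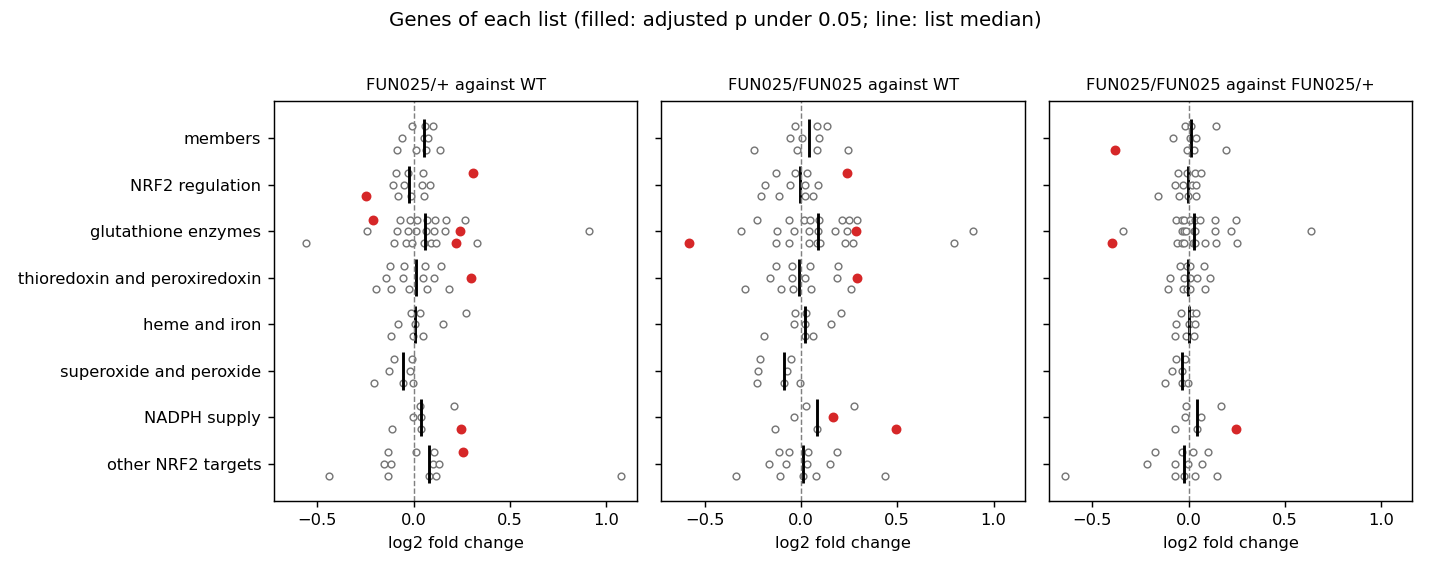
Log2 fold change (horizontal axes) of each gene of the members and the 7 pathway lists in the 3 comparisons, with calls at an adjusted p under 0.05 filled and list medians as lines. Filled points were few, and list medians lay between -0.086 and 0.086.

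Markers of other tissues were compared between the same groups as well. Skeletal muscle markers had median log2 fold changes of -0.68 and -0.71 in FUN025/+ and FUN025/FUN025 against WT, with 3 of 10 called lower in each. Rod markers had medians of -1.80 and -1.89, with 0 and 1 of 10 called lower. Summed rod markers were at 824, 2510, 563 and 353 CPM in WT mice 1 to 4. WT mouse 2 thus stood far above the others, and the groups overlapped. Endothelial markers were lower too, at -0.16 and -0.36, with 3 and 5 of 8 called. Over all genes 13.7% and 14% were called in these comparisons. Red blood cell markers had medians of -1.16 and -0.415 against WT and 0.65 between the mutants, and lens markers 1.86, 3.35 and 1.47, with 0 called. The summed lens level was 4.17 to 19.6 CPM in WT, 4.23 to 98.1 in FUN025/+ and 4.39 to 210 in FUN025/FUN025 eyecups. The highest were FUN025/FUN025 mice 3 and 4 at 210 and 112 CPM and FUN025/+ mouse 1 at 98.1 CPM. Hmox1 was the highest of all 15 in the first of these, the lowest of its genotype in the next and the lowest of all 15 in the last, and FUN025/FUN025 mouse 4 also had the lowest Nqo1 and a high Slc7a11. The part of lens and blood content in the results was not tested. When muscle and rod marker levels were added to the fit, pathway calls fell from 8 to 0 and from 6 to 1 in the comparisons with WT, and calls over all genes from 2600 to 366 and from 2666 to 812. The gene that kept its call was Idh1, at 0.50 (adjusted p = 0.00128). Between the mutants Idh1 and Ggt1 both kept theirs. Most of the fold changes whose calls were lost stayed about as large or were larger, with adjusted p values of 0.0634 or more. In FUN025/+ and FUN025/FUN025 against WT they were 0.36 and 0.30 for Btrc, 0.39 and 0.37 for Sesn3 and 0.29 and 0.34 for Gstt1. Ggt5 was at -0.59 in FUN025/FUN025, and Idh1, Mafg and Slc3a2 were at 0.25, -0.21 and -0.21 in FUN025/+ mice. Those that shrank were Akr1b3 (0.16) and Gstp1 (-0.03) in FUN025/+ and Pgd (0.08) in FUN025/FUN025 mice. The part of endothelial content in these calls was not tested.

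**Figure D5:**
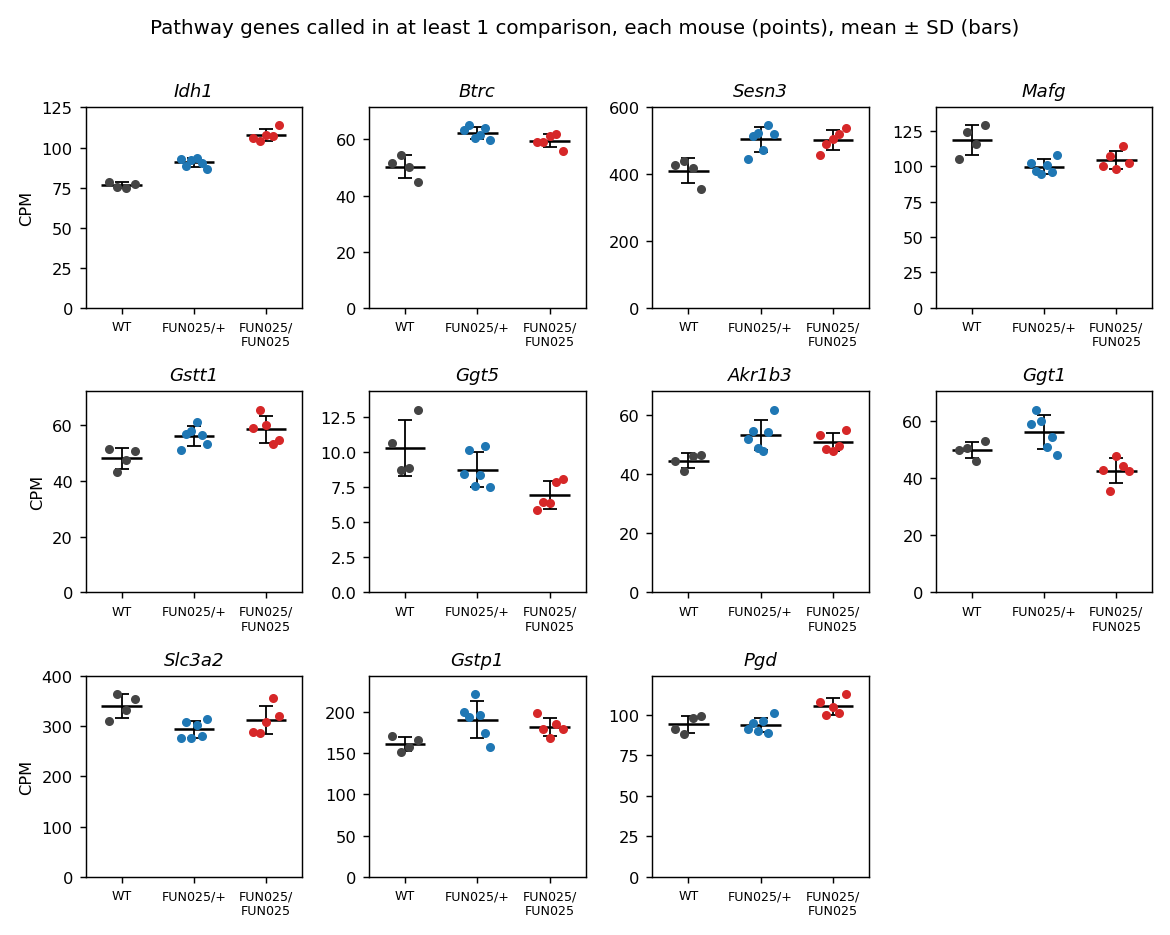
CPM (vertical axes, from 0) of the 11 pathway genes called in at least 1 comparison, in each mouse (points) by genotype, with the mean (long line) and SD (capped bar). Idh1 was stepped over the genotypes, at means of 76.5, 90.8 and 108 CPM, and Ggt1 was lowest in FUN025/FUN025 mice, at a mean of 42.5 CPM.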

How the data were processed

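The authors deposited whole-number counts of reads per Ensembl gene for each of 15 libraries, with no normalization. The paper gives NEBNext Ultra libraries with poly(A) selection and paired-end HiSeq reads, and the submitters' processing notes list FastQC 0.11.8, Trimmomatic 0.39, HISAT2 2.1.0, SAMtools, featureCounts 2.0.0 and GRCm38. The annotation release and strand setting are not given in the sources used here, so reads of overlapping genes could be split or lost.

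From these counts, the 15% of genes with the lowest variance and those failing edgeR's filterByExpr were removed, leaving 18979 genes. Counts were scaled by TMM and tested with edgeR 4.0.16 (quasi-likelihood, robust), with all 15 mice in 1 fit, 12 residual degrees of freedom and Benjamini-Hochberg adjustment over all genes. A gene was called at an adjusted p under 0.05. R 4.3.3, limma 3.58.1, DESeq2 1.42.0, Python 3.11.15, numpy 2.4.6, pandas 2.3.3, scipy 1.17.1 and matplotlib 3.10.9 were used. Log2 CPM had a prior count of 2. TPM used the exon length of GENCODE M21. The floor was 3 counts, 0.15 to 0.275 CPM, and covers counting error only. The fits were tested on simulated data. Replicates of a genotype differed by more than sampling noise in all 31 pairs. The p-values of the fits weigh a difference between genotypes against the spread between these mice.

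Named with values are the 10 members, the 11 pathway genes called in any comparison, and Nfe2l2, Keap1, Bach1 and Tmem135. Other genes (Gpx2, Sod3, Park7, Rpe65 and Best1) are named only as examples of their lists, outside this rule. Pir, Tfrc, Msrb1 and Romo1, and Sod3 again, are named for a call in an alternative. Members and lists were chosen with earlier results of these data known. Besides the lists given with the results, markers of melanocytes (8200 to 10400 CPM summed over the 15 mice), macrophages (551 to 782), fibroblasts (4460 to 7250), red blood cells (22.5 to 298) and lens (4.17 to 210) were summed. Of these only 1 macrophage marker was called, higher in FUN025/FUN025 against WT, where 14% of all genes were called. Alternatives were 12 changes of scaling, test, filter, samples, pairing, depth or covariates, and leaving out each of 15 mice.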

Additional observations from a re-analysis of the deposited data

Results flagged for a closer look

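In 2 of 72 sets of values (24 named genes, Tmem135 not among them, in 3 genotypes), 1 mouse lay farther from its group than Dixon's 95% limit for 6 mice, 0.625 of the range; chance gives about 1 such set in 20. Slc7a11 was at 64.1 CPM in FUN025/+ mouse 4, with the next mouse at 40.0 CPM, a gap of 0.729 of the range. Sod1 was at 178 CPM in FUN025/+ mouse 1, with the next mouse at 202 CPM, a gap of 0.683 of the range.

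For 3 named genes the effects of 1 and of both mutant copies, each against WT, differed when the mutant genotypes were compared directly with edgeR's quasi-likelihood test. Nqo1 differed by -0.38 on the log2 scale (adjusted p = 0.029), with values of 0.14 in FUN025/+ and -0.24 in FUN025/FUN025 against WT, neither called. Its call between the mutants was lost in 11 of 27 alternatives. Ggt1 differed by -0.40 (adjusted p = 0.017). Idh1 differed by 0.25 (adjusted p = 0.00161).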

How the results depend on the processing

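Between FUN025/+ and WT the count of members called was 0 in all alternatives run. Between FUN025/FUN025 and WT it went from 0 to 1 (Nqo1) with the replicate block and with an Xist covariate. Between the mutants it went from 1 to 0 with the 2 genotypes alone in the fit, with the replicate block and after thinning to one depth. Leaving out each mouse gave 0 to 1 in each of these last 2 comparisons, and the Nqo1 call between the mutants was kept in 7 of 15. Pathway calls went from 8 to 0 and from 6 to 1 with muscle and rod covariates, and leaving out each mouse gave 5 to 8, 5 to 9 and 1 to 2. The lowest counts of the first came without WT mouse 2, WT mouse 4 or FUN025/+ mouse 3. Calls over all genes went to 366 and 812 with the covariates and from 99 to 171 with DESeq2, and leaving out each mouse gave 1433 to 2719, 1519 to 2697 and 68 to 106, the lowest of the first 2 without WT mouse 4. With the covariates Gstp1 turned from 0.24 to -0.03 in FUN025/+ against WT, while Btrc (0.36 and 0.30), Sesn3 (0.39 and 0.37), Gstt1 (0.29 and 0.34), Ggt5 (-0.59 in FUN025/FUN025) and Idh1 (0.25 in FUN025/+) lost their calls against WT at fold changes as large or larger, and Idh1 in FUN025/FUN025 (0.50) kept its call. Among uncalled members the covariates moved Sod2 to 0.28 and 0.23, Gclm to 0.19 and 0.22 and Srxn1 to 0.10 and 0.06 against WT. Slc7a11, never called, ran from 0.07 to 0.56 and from 0.23 to 0.70 against WT over the 12 alternatives that keep all mice, and leaving out each mouse gave -0.07 to 0.23, 0.09 to 0.38 and, between the mutants, -0.01 to 0.33. Hmox1, never called, ran from 0.12 to 0.25 between the mutants in the same way. Member pair correlations gave 0 calls throughout. Of 780 values of uncalled members, 41 changed sign. The causes were not tested.

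Replicate numbers name different animals: over 13 same-numbered pairs the correlation of deviations ran from -0.38 to 0.13, with 1 above 0.1, so the replicate block joins mice by number alone, and it gave Nqo1 an adjusted p of 0.0435 in FUN025/FUN025 against WT and 0.0731 between the mutants, and 7, 8 and 2 pathway calls. Depth limits comparisons with WT, whose libraries were all deeper.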
